A study of Mus musculus with 4 samples.

Results

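The 10 genes described here encode C-type lectin receptors of macrophages and dendritic cells: Clec10a, Mgl2, Clec4a2, Clec4d, Clec4e, Clec4n, Clec7a, Clec12a, Clec5a and Mrc1. They were picked by name out of the 24497 gene rows of a table of TPM (transcript abundance scaled to length and to a fixed total), with earlier results of the same comparison known, and all 10 were found in it. RNA had been sequenced from mouse acute myeloid leukaemia cells grown in culture, with 2 libraries labelled WT and 2 labelled Tet2 KO. Both groups carried NRAS together with AE9a, an oncogenic AML1-ETO isoform. Their medium held 10 ng/ml of IL-3, 10 ng/ml of IL-6 and 50 ng/ml of stem cell factor (SCF), and also puromycin (2 µg/ml) and G418 (1 mg/ml). WT cells descended from wild-type bone marrow haematopoietic stem cells, and Tet2 KO cells from those of Tet2-/- mice, which lack exon 3 of the gene. Whether a group's libraries stem from separate animals, cultures or transformations is not in the labels, so p-values below cover the spread between libraries alone, and it may be technical.

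C-type lectin receptors are membrane proteins that recognise sugars and other ligands of microbes and of dead cells through a calcium-dependent lectin fold or a relative of it. In myeloid cells some of them activate the kinase SYK and the adaptor CARD9, either through a tyrosine motif in their own tail (Dectin-1) or through the partner chains FcR gamma and DAP12, and others carry an inhibitory tyrosine motif or serve mainly to take up ligands. Tet2 encodes a dioxygenase that oxidises 5-methylcytosine in DNA.

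Because TPM are scaled to length, levels may be set side by side between genes, but the depth of the libraries is unknown. Libraries had 14753 to 15139 genes above 0, and limma was run on log2(TPM + 1) for the 11452 genes with 1 TPM or more in at least 2 libraries. Over all of them the median log2 fold change, Tet2 KO minus WT, was 0.23, so each change is also given after median-ratio scaling of the libraries, which brings that median near 0. The spike-in share of the total was 4.38 and 4.43% in WT against 5.48 and 5.33% in Tet2 KO. Tet2 itself stood at 16.8 ± 0.255 TPM in WT and 16.96 ± 0.0212 TPM in Tet2 KO (SD, n = 2), and a gene-level value does not check the loss of 1 exon.

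The cells were checked against marker lists of the cell types that the receptors are known from. Of 12 macrophage markers, 5 reached the test level. Of these 2 rose and 3 fell, beside 54.4% and 19.5% of all genes tested. After median-ratio scaling 1 was higher and 4 were lower, beside 32.7% and 34.8% of all genes. The most abundant were Cd68 at 429.3 ± 2.05 and 333.1 ± 9.83 TPM and Adgre1, the gene of F4/80, at 302.5 ± 0.849 and 322.5 ± 6.41 TPM in WT and Tet2 KO (SD, n = 2). Adgre1, counted among those that rose, had a log2 fold change of only 0.09, and -0.16 after median-ratio scaling. Csf1r, the receptor gene for the macrophage growth factor CSF1, fell from 99.48 and 100.70 TPM in WT to 39.39 and 43.41 TPM in Tet2 KO, and Mertk, a receptor gene for the uptake of dead cells, from 6.05 and 6.67 to 2.10 and 1.81 TPM. Fcgr1, a high-affinity Fc receptor gene, rose from 2.85 and 2.71 to 5.21 and 5.17 TPM. The list, most of it Cd68 and Adgre1, summed to 841 to 842 TPM in WT and 692 to 719 TPM in Tet2 KO. C1qa was listed at 0 in all libraries, and the tissue macrophage genes Cd163, Timd4 and Vsig4 stayed at or under 0.50 TPM. Of 12 dendritic cell markers 9 were under 1 TPM in every library, including the defining genes Flt3, Zbtb46 and Xcr1, and Cd209a was listed at 0 in all. That list's sum of 95.9 to 96.1 TPM in WT and 14.9 to 15.8 TPM in Tet2 KO was mostly Itgax, at 86.38 ± 0.0919 and 10.4 ± 1.12 TPM (SD, n = 2). All 5 B cell markers and all 6 T and NK cell markers in the table were under 1 TPM in every library, with sums no higher than 0.82 and 0.33 TPM. The stromal and endothelial list summed to 44.5 to 44.7 TPM in WT and 74.7 to 83.6 TPM in Tet2 KO, from Vwf and Pdgfrb, while Col1a1, Col1a2, Cdh5 and Kdr were under 1 TPM. The part of these markers in the values below was not tested.

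The 10 receptors moved apart from each other between the groups. Clec10a rose 7.71-fold and Clec4e 1.4-fold in Tet2 KO. Clec7a, Mrc1, Clec4n, Mgl2, Clec4a2 and Clec12a fell, by 4.56-fold to 2.26-fold, Clec5a fell 1.61-fold, and Clec4d was 1.1-fold lower. In the fit over all genes, 2 members were past the adjusted threshold of 0.05 upwards and 8 downwards, where 54.4% of all genes tested were past it upwards and 19.5% downwards, 73.9% in all. After median-ratio scaling 2 members were again higher and 8 lower, against 32.7% and 34.8% of all genes and 67.5% in all. Among those that also changed at least 2-fold on the log2 scale were 1 member upwards and 6 downwards, against 6.1% and 2.8% of all genes. Libraries of the 2 groups did not overlap for any of the 10, with 2 members higher and 8 lower, as for 86.8% of all genes tested, 62.4% higher and 24.4% lower. Because the members were picked with this comparison in view, their values are a description: nothing is read from these counts and no p-value is given for a member. In RNA from bulk cells, fewer cells with a receptor and less of its RNA per cell cannot be told apart.

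**Figure D1:**
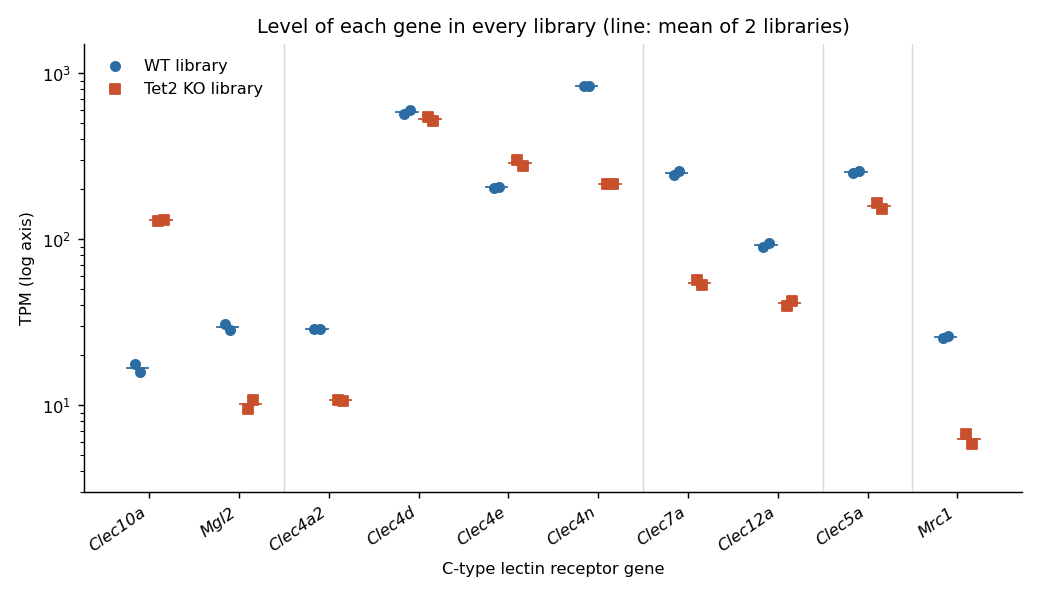
TPM of the 10 receptor genes (log axis) in each of the 2 WT libraries (circles) and 2 Tet2 KO libraries (squares), with a line at each group's mean; grey lines part the receptor families. Clec10a rose from the lowest WT mean of the set, 16.84 TPM, to 129.9 TPM, the means of Clec4d and Clec4e stayed within 1.4-fold, and the others lay lower in both Tet2 KO libraries.

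Clec10a and Mgl2 encode the closely related macrophage galactose-type lectins, known as CD301a and CD301b, which bind galactose and N-acetylgalactosamine on glycoproteins. The genes lie beside each other on chromosome 11 (mm10), Mgl2 at 70130329 to 70137550 and Clec10a at 70156197 to 70170834, with 25.9 kb between their starts. Clec10a read 17.75 and 15.93 TPM in the WT libraries against 128.38 and 131.43 TPM in the Tet2 KO libraries. The mean rose from 16.84 ± 1.29 to 129.9 ± 2.16 TPM (SD, n = 2). Both Tet2 KO libraries were high and far from both WT libraries, and the gene moved from the 46.6th to the 90.3rd percentile of tested genes by level. Its log2 fold change was 2.88 (SE 0.0605), and 2.63 (SE 0.0609) after median-ratio scaling, with 99.9% of all tested genes below it. Mgl2 went the other way, from 30.95 and 28.62 TPM in WT to 9.56 and 10.71 TPM in Tet2 KO, a 2.94-fold fall of the mean from 29.79 ± 1.65 to 10.14 ± 0.813 TPM (SD, n = 2). Its log2 fold change was -1.47 (SE 0.0751), and -1.70 (SE 0.0714) after median-ratio scaling. The ratio of Clec10a to Mgl2 within a library, which a single scaling factor per library cannot alter, was 0.574 and 0.557 in WT and 13.4 and 12.3 in Tet2 KO. The member of the pair with more RNA was thus Mgl2 in both WT libraries and Clec10a in both Tet2 KO libraries.

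The pair is alike enough for reads to be shared, so both values carry that uncertainty. Aligned coding sequences from GENCODE M21 (927 bases for Clec10a and 1146 for Mgl2) matched at 782 of 835 aligned bases, 93.7%. The following stretch is the last gap-free 120 coding bases of the alignment, printed because it shows how few positions tell the genes apart. It is spliced over an intron in each gene, on the plus strand at chr11:70170069-70170421 for Clec10a and at chr11:70136584-70136780 for Mgl2, and the capitals mark the 8 positions at which the genes differ.
Clec10a: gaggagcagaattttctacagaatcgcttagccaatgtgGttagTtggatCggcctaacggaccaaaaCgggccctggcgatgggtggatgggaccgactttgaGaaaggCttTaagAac
Mgl2: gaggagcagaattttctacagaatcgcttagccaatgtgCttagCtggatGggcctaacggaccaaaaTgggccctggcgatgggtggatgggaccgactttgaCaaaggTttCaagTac
Of the distinct 50-base words in the annotated transcripts of Clec10a, 8.49% also occur in Mgl2, and of those of Mgl2 12.2% occur in Clec10a. Those words include bases outside the coding sequences. In the coding alignment the longest identical run was 183 bases, and 6 runs were of at least 50 bases. The part of shared reads in both values was not tested. No source used here says how reads of the shared words were divided.

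The Dectin-2 cluster on chromosome 6 holds 4 of the members within 183 kb: Clec4a2 (123106428 to 123143999), Clec4n (123229843 to 123247021), Clec4d (123262111 to 123275265) and Clec4e (123281789 to 123289870, on the minus strand). Clec4n encodes Dectin-2, a receptor for fungal mannans that signals through FcR gamma. It was the most abundant of the 10 in WT, at 842.58 and 832.70 TPM, and fell to 213.92 and 216.37 TPM in Tet2 KO, a 3.89-fold fall of the mean from 837.6 ± 6.99 to 215.1 ± 1.73 TPM (SD, n = 2). The log2 fold change was -1.96 (SE 0.0363), or -2.21 (SE 0.0362) after median-ratio scaling, and each group's libraries lay within 10 TPM of each other. Clec4e encodes Mincle, which recognises mycobacterial cord factor and a nuclear protein released by dying cells. It had 204.30 and 207.77 TPM in WT, and 299.75 and 277.80 TPM in Tet2 KO, a log2 fold change of 0.48 (SE 0.0442), and 0.23 (SE 0.0503) after median-ratio scaling. The mean rose from 206.0 ± 2.45 to 288.8 ± 15.5 TPM (SD, n = 2), and the lower Tet2 KO library stood above both WT libraries.

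Clec4d encodes MCL, the partner of Mincle on the cell surface. It read 567.92 and 599.25 TPM in the WT libraries against 546.50 and 514.30 TPM in the Tet2 KO libraries. The means were 583.6 ± 22.2 and 530.4 ± 22.8 TPM (SD, n = 2). The groups did not overlap, but their nearest libraries lay closer together than the libraries within a group. The log2 fold change was -0.14 (SE 0.0406), and -0.39 (SE 0.0481) after median-ratio scaling. The gene was no longer past the threshold without WT replicate 2 (-0.10), without Tet2 KO replicate 2 (-0.09), after quantile normalization (-0.02) or without an intensity trend (-0.14). Clec4a2 encodes DCIR, a receptor with an inhibitory tyrosine motif. It had 28.82 and 28.99 TPM in WT, and 10.82 and 10.65 TPM in Tet2 KO, for a log2 fold change of -1.35 (SE 0.0674), or -1.59 (SE 0.0574) after median-ratio scaling. The mean fell 2.69-fold, from 28.91 ± 0.12 to 10.73 ± 0.12 TPM (SD, n = 2). Of its 50-base words 6.69% occur in other genes, most of them in Clec4a4, which was listed at 0 in all libraries.

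Neighbours within this cluster therefore changed by different amounts. The ratio of Clec4e to Clec4n was 0.242 and 0.250 in WT and 1.40 and 1.28 in Tet2 KO, and that of Clec4d to Clec4n was 0.674 and 0.720 in WT and 2.55 and 2.38 in Tet2 KO. The starts of Clec4n and Clec4d are 32.3 kb apart and those of Clec4d and Clec4e, which lie on opposite strands, 27.8 kb. Other genes of the cluster were low: Clec4a1 was at 1.065 ± 0.0212 TPM and Clec4a3 at 2.09 ± 0.099 TPM in WT, and both were under 0.1 TPM in Tet2 KO (SD, n = 2). Both reached the test level through their WT libraries alone, so no p-value is given for them. Clec4b2 rose from 3.935 ± 0.318 to 5.88 ± 0.933 TPM (limma adjusted p = 0.0012), and was not past the threshold after median-ratio scaling (log2 fold change 0.27). Clec4b1 did not exceed 0.25 TPM in any library.

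**Figure D2:**
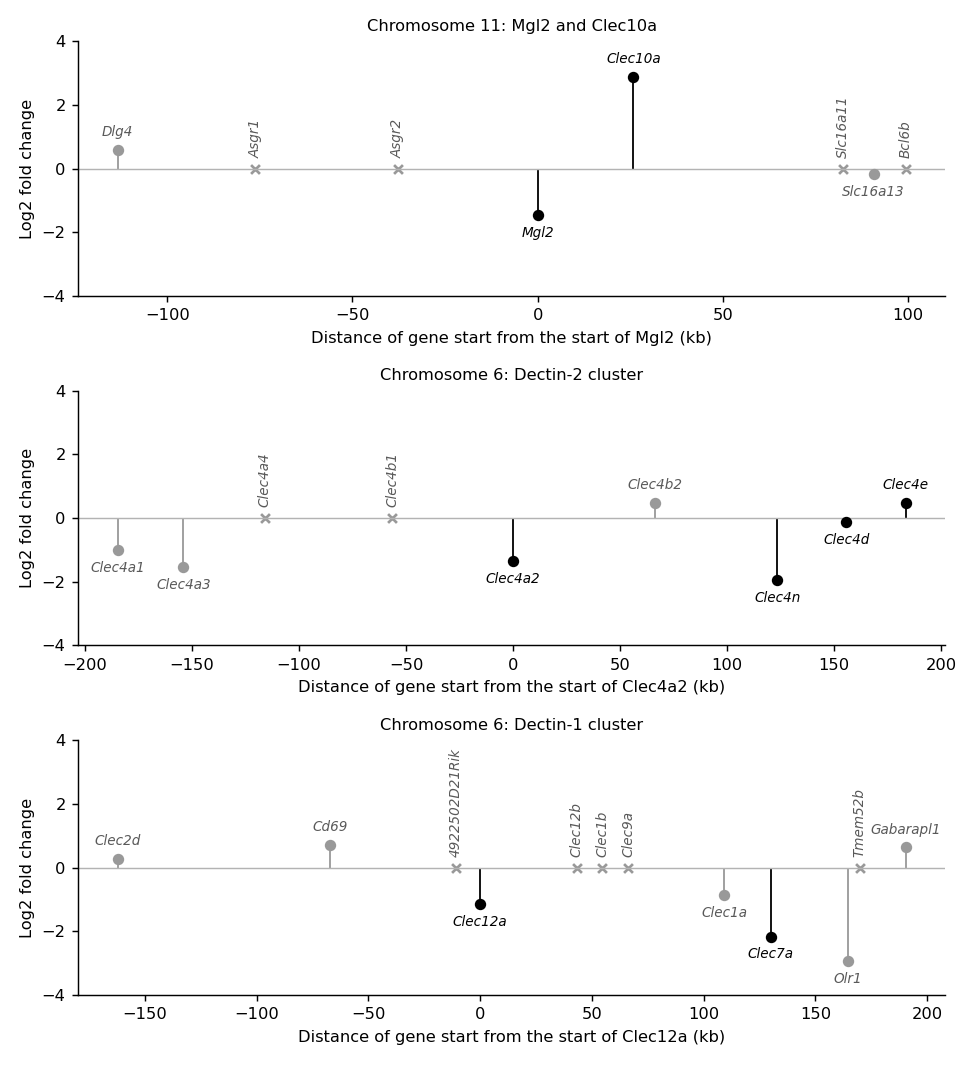
Log2 fold change (Tet2 KO minus WT, log2(TPM + 1) scale) of the members (black) and their neighbours (grey) against the distance of each gene start, by strand, in kb; vomeronasal receptor genes are not drawn and crosses mark genes too low to be tested, drawn at 0. Mgl2 and Clec10a are close neighbours with changes of opposite sign. Clec4n and Clec4e, with Clec4d between them, also changed in opposite directions, while Clec7a and Olr1 both fell.

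Clec7a and Clec12a lie in the Dectin-1 cluster, farther along chromosome 6, at 129461591 to 129472779 and 129342691 to 129365303. Clec7a encodes Dectin-1, the receptor for fungal beta-glucans, and GENCODE M21 lists it as a polymorphic pseudogene. It read 243.35 and 256.72 TPM in the WT libraries against 57.06 and 52.70 TPM in the Tet2 KO libraries, a log2 fold change of -2.17 (SE 0.0514), or -2.42 (SE 0.0543) after median-ratio scaling. The mean fell 4.56-fold, and the SD was 9.45 TPM in WT and 3.08 TPM in Tet2 KO (n = 2). This was the greatest fall on either scale among the 10, and only 0.332% of tested genes had a lower log2 fold change. The ratio of Clec4n to Clec7a, both receptors for fungal cell walls, was 3.46 and 3.24 in WT and 3.75 and 4.11 in Tet2 KO. Both thus fell about 4-fold, and their ratio was 1.17-fold higher in Tet2 KO. The groups did not overlap in this ratio, but their nearest libraries lay closer together than the 2 Tet2 KO libraries. Clec12a encodes an inhibitory receptor that recognises uric acid crystals. It had 89.95 and 95.34 TPM in WT, and 39.71 and 42.44 TPM in Tet2 KO, for a log2 fold change of -1.15 (SE 0.0564), or -1.40 (SE 0.0469) after median-ratio scaling. The mean fell 2.26-fold, from 92.65 ± 3.81 to 41.08 ± 1.93 TPM (SD, n = 2). Clec7a fell further than Clec12a: the ratio of Clec12a to Clec7a was 0.370 and 0.371 in WT and 0.696 and 0.805 in Tet2 KO.

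Clec5a (chromosome 6, 40574894 to 40585821) encodes MDL-1, an activating receptor that signals through DAP12 and binds dengue virus. It read 251.84 and 257.46 TPM in the WT libraries against 164.39 and 151.57 TPM in the Tet2 KO libraries. The mean fell from 254.6 ± 3.97 to 158.0 ± 9.07 TPM (SD, n = 2). Its log2 fold change was -0.69 (SE 0.0462), and -0.94 (SE 0.052) after median-ratio scaling, so it stayed short of a 2-fold change on both scales. Mrc1 (chromosome 2, 14229392 to 14332057) encodes the mannose receptor CD206, an endocytic receptor with several lectin domains and a marker of alternatively activated macrophages. It had 25.52 and 26.05 TPM in WT, and 6.69 and 5.86 TPM in Tet2 KO. The mean fell 4.11-fold, from 25.79 ± 0.375 to 6.275 ± 0.587 TPM (SD, n = 2). Its log2 fold change was -1.88 (SE 0.0802), and -2.11 (SE 0.0787) after median-ratio scaling. Mrc1 was the lowest of the set in Tet2 KO, at the 20.3rd percentile of tested genes by level against the 59.2nd in WT.

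**Figure D3:**
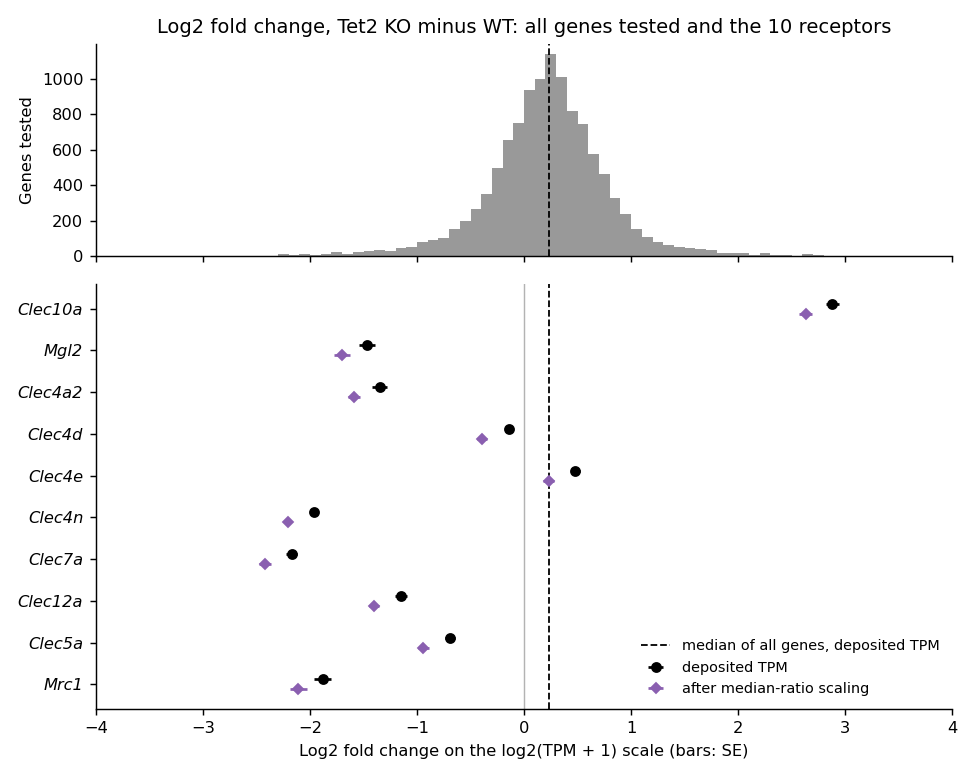
Top, log2 fold changes of all 11452 tested genes (values past 4 are drawn at the edge). Bottom, the 10 receptors on the deposited scale (circles) and after median-ratio scaling (diamonds), with SE; the dashed line is the median of all genes, 0.23. Rescaling moved every receptor down by about that much and turned no sign.

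Summed over the 10 genes, receptor RNA came to 2303 and 2349 TPM in WT and to 1477 and 1414 TPM in Tet2 KO. Clec4n held 36.6 and 35.5% of that sum in WT and 14.5 and 15.3% in Tet2 KO. Clec4d and Clec4e together held 33.5 and 34.4% in WT and 57.3 and 56.0% in Tet2 KO, and Clec10a went from 0.771 and 0.678% to 8.69 and 9.30%. The Mincle and MCL pair thus took the largest part of the sum in Tet2 KO, where Dectin-2 and Dectin-1 RNA had shrunk. In WT the order from high to low was Clec4n, Clec4d, Clec5a, Clec7a, Clec4e, Clec12a, Mgl2, Clec4a2, Mrc1 and Clec10a, in which the libraries of Clec5a and Clec7a, and of Mgl2 and Clec4a2, overlapped. In Tet2 KO the order was Clec4d, Clec4e, Clec4n, Clec5a, Clec10a, Clec7a, Clec12a, Clec4a2, Mgl2 and Mrc1, in which those of Clec4a2 and Mgl2 overlapped.

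**Figure D4:**
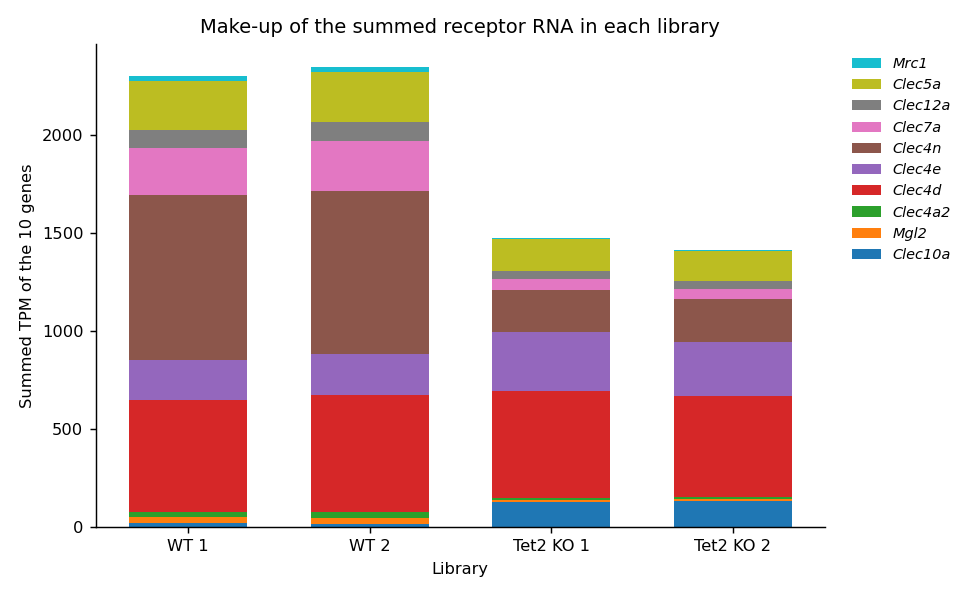
Summed TPM of the 10 receptor genes in each library, stacked by gene. The WT bars reach 2303 and 2349 TPM and the Tet2 KO bars 1477 and 1414 TPM; the Clec4n part shrinks and the Clec10a part grows.

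Promoter windows were taken from RefSeq (GRCm38.p6, the mm10 build) for the 8 members that its table holds, as the 250 bases before the RefSeq start. That start lay within 28 bases of the outermost GENCODE start for 6 of the 8, but 16.3 kb inside the GENCODE gene for Clec4a2 and 7.55 kb inside it for Clec12a. No window is shown for Clec10a or Clec4n. The 4 below are shown because they belong to Clec7a and Mrc1, which fell most among these 8, and to Clec4d and Clec4e, whose log2 fold changes were the nearest to 0. Each is written 5′ to 3′ on the gene's own strand, and capitals mark matches to GAGGAA, the core of sites of the myeloid factor PU.1, and to TTNNGNAA, the pattern of C/EBP factors, on either strand.
Clec7a, chr6:129472780-129473029, minus strand: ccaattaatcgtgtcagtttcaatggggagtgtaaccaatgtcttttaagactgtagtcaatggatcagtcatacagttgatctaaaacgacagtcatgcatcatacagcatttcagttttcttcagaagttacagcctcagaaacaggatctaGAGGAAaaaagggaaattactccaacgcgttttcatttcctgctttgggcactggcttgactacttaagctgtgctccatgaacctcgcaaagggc
Mrc1, chr2:14229164-14229413, plus strand: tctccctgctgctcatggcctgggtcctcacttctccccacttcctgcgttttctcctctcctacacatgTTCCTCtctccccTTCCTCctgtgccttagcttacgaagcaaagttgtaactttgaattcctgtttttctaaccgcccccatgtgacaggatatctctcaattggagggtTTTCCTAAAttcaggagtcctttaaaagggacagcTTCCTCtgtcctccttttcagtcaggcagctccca
Clec4d, chr6:123261857-123262106, plus strand: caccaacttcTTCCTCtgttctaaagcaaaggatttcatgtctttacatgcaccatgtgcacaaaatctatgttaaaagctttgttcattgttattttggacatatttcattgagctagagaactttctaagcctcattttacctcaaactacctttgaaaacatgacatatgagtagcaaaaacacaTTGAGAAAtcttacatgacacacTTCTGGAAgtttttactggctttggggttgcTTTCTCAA
Clec4e, chr6:123289872-123290121, minus strand: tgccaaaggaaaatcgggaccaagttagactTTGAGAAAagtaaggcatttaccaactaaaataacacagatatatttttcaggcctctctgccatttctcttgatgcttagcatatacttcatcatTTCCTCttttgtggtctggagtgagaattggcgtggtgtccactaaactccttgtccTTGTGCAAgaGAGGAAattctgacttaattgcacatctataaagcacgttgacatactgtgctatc
GAGGAA was found in 7 of the 8 windows and in 23.3% of all 32851 windows of the same length, and TTNNGNAA in 7 of the 8 and in 36.8% of all. Clec4a2 had no match to GAGGAA, and Clec7a none to TTNNGNAA. No match of one pattern overlapped a match of the other in these 8 windows. TATAAA, the core of the TATA box, was found on either strand in 3 of the 8 and in 12.4% of all. The 8 windows held 0 to 5 CpG (median 3), the dinucleotide that carries 5-methylcytosine. All windows had a median of 6 and quartiles of 2 and 16, and 37.8% of them held at most 3. The GC content of the 8 was 35.2 to 50.8%, against a median of 52.4% for all windows. The window of Clec4e, which rose, and those of Clec12a, Clec5a and Mrc1, which fell, each held 3 CpG, and that of Clec4d held 0. Matches and CpG numbers describe these letters only.

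The table held 46 other C-type lectin receptor genes and 17 were tested, of which 9 rose and 6 fell (median log2 fold change 0.27, against 0.23 for all genes, of which 54.4% rose and 19.5% fell). After median-ratio scaling 6 were higher and 7 lower, against 32.7% and 34.8% of all genes. The 6 that fell include Clec4a1 and Clec4a3, and the 9 that rose include Clec11a. These genes reached the test level only through the group where they were higher, so their direction in the counts followed from the filter. With a filter of 5 TPM, 9 rose and 3 fell. Olr1, which encodes the scavenger receptor LOX-1 and starts 34.4 kb from the start of Clec7a, fell from 43.31 ± 0.856 to 4.805 ± 0.785 TPM (limma adjusted p = 6.27e-13). Cd302 fell from 12.47 ± 0.467 to 2.61 ± 0.0566 TPM (limma adjusted p = 2.77e-11). Clec11a, also counted in this list, encodes not a receptor but a secreted growth factor of blood progenitors and bone. It rose from 1.035 ± 0.191 to 6.135 ± 0.389 TPM. Only in Tet2 KO did both of its libraries reach 1 TPM, so no p-value is given for it. The liver lectin genes Asgr1 and Asgr2, which neighbour Mgl2, did not exceed 0.14 TPM.

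The 3 nearest protein-coding genes on each side of each member, by lower coordinate and passing over the other members, made up 35 genes in the table, of which 14 were tested. Of these 7 rose and 5 fell (their median log2 fold change was 0.07), and after median-ratio scaling 4 were higher and 7 lower. Clec4a3, which reached the test level through its WT libraries alone, is among those that fell. The shares over all genes were 54.4% and 19.5%, and 32.7% and 34.8% after that scaling. Beside Olr1, Cd69, an early activation marker in the Dectin-1 region, rose from 97.47 ± 2.71 to 159.6 ± 16.5 TPM (limma adjusted p = 1.96e-06), and Gabarapl1, an autophagy gene there, from 115.0 ± 5.74 to 179.1 ± 1.27 TPM (limma adjusted p = 4.42e-09). Dlg4, beyond Asgr1 and Asgr2 from Mgl2, rose from 10.47 ± 0.445 to 16.29 ± 0.757 TPM (limma adjusted p = 3.51e-06).

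Of 23 tested signalling genes, 12 rose and 6 fell, where 54.4% of all genes tested rose and 19.5% fell, and the list's median log2 fold change of 0.18 was near that of all genes. After median-ratio scaling 6 were higher and 9 lower, against 32.7% and 34.8% of all genes. Fcer1g, the FcR gamma chain used by Dectin-2 and Mincle, was at 939.9 ± 6.04 and 939.3 ± 9.93 TPM (SD, n = 2) and did not pass (limma adjusted p = 0.98). Its direction depended on the scaling: the log2 fold change was 0.00 as deposited, -0.25 after median-ratio scaling, -0.30 after spike-in scaling and 0.26 after quantile normalization. Tyrobp, which encodes DAP12, the partner of the Clec5a product, fell from 1745 ± 2.06 to 1435 ± 17.7 TPM (limma adjusted p = 3.65e-07). Syk fell from 106.1 ± 0.0495 to 88.43 ± 1.42 TPM (limma adjusted p = 1.16e-04), while Card9 was at 55.45 ± 0.686 and 52.08 ± 1.65 TPM (limma adjusted p = 0.149, with a log2 fold change of -0.09, or -0.34 after median-ratio scaling, where it passed). The Src-family kinase gene Fgr fell 2.09-fold, and Vav3, a guanine nucleotide exchange factor gene, and Inpp5d, which encodes the inhibitory phosphatase SHIP1, rose 2.12-fold and 1.46-fold.

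Of 13 tested genes known as outputs of SYK and CARD9 signalling, 7 rose and 6 fell, where 54.4% of all genes rose and 19.5% fell. After median-ratio scaling 6 were higher and 6 lower, against 32.7% and 34.8% of all genes. The list's median log2 fold change on the deposited scale was 0.25. The neutrophil chemokine gene Cxcl2 rose from 62.58 ± 1.80 to 173.4 ± 4.04 TPM (limma adjusted p = 1.96e-13), Ptgs2, which encodes cyclooxygenase 2, from 8.82 ± 0.622 to 25.15 ± 2.39 TPM (limma adjusted p = 2.58e-10) and Il6 from 27.39 ± 0.212 to 64.93 ± 3.70 TPM (limma adjusted p = 2.32e-11). Egr2, an early response transcription factor gene, fell from 19.47 ± 0.0636 to 5.265 ± 0.177 TPM (limma adjusted p = 1.53e-11). These genes have other inducers too, and the activity of the pathway was not measured.

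Clec10a, Mgl2 and Mrc1 are widely used as markers of alternatively activated macrophages, and other genes of that state were counted beside them. Of 17 tested genes, 10 were lower and 6 higher (median log2 fold change -0.67), beside 19.5% and 54.4% of all genes. After median-ratio scaling 10 were lower and 4 higher (median -0.84), beside 34.8% and 32.7% of all genes. Arg1, the arginase gene, fell from 33.94 ± 1.98 to 3.215 ± 0.926 TPM (limma adjusted p = 2.30e-06), and Egr2 fell as given above. Pdcd1lg2, which encodes PD-L2, rose from 13.93 ± 0.00707 to 51.19 ± 1.15 TPM (limma adjusted p = 2.40e-13) and Tgm2, the transglutaminase 2 gene, from 16.36 ± 0.0212 to 52.87 ± 3.22 TPM (limma adjusted p = 1.27e-12). Like the 3 receptors, the list therefore held members that moved in each direction.

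Of 23 other tested pattern recognition and scavenger receptor genes 14 fell and 6 rose, where 19.5% of all genes fell and 54.4% rose, and the list's median log2 fold change was -0.58 against 0.23 for all genes. After median-ratio scaling 16 were lower and 3 higher, against 34.8% and 32.7% of all genes. Tlr8 fell from 14.02 ± 0.361 to 1.28 ± 0.0424 TPM (limma adjusted p = 5.52e-13), and Tlr1 from 5.725 ± 0.403 to 1.47 ± 0.0849 TPM (limma adjusted p = 6.47e-09). Trem2, a lipid-sensing receptor gene whose product signals through DAP12, fell from 125.0 ± 1.01 to 21.7 ± 0.658 TPM (limma adjusted p = 1.25e-15), and the scavenger receptor gene Msr1 from 52.77 ± 1.59 to 10.43 ± 0.0141 TPM (limma adjusted p = 2.88e-14). Of 18 tested myeloid transcription factor genes, 9 fell and 4 rose (median -0.12), or 11 and 3 after median-ratio scaling, beside the same shares of all genes. Pparg, a lipid-sensing nuclear receptor gene, fell from 9.235 ± 0.0212 to 2.435 ± 0.304 TPM (limma adjusted p = 8.44e-10), Tfec, of the MiT family, from 75.36 ± 1.23 to 28.9 ± 0.269 TPM (limma adjusted p = 2.51e-12), Batf3 from 8.125 ± 0.629 to 2.65 ± 0.594 TPM (limma adjusted p = 7.39e-08) and Cebpe, a factor of late neutrophil development, from 60.26 ± 4.06 to 25.15 ± 0.905 TPM (limma adjusted p = 4.06e-11). Their part in the receptors' levels was not tested.

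**Figure D5:**
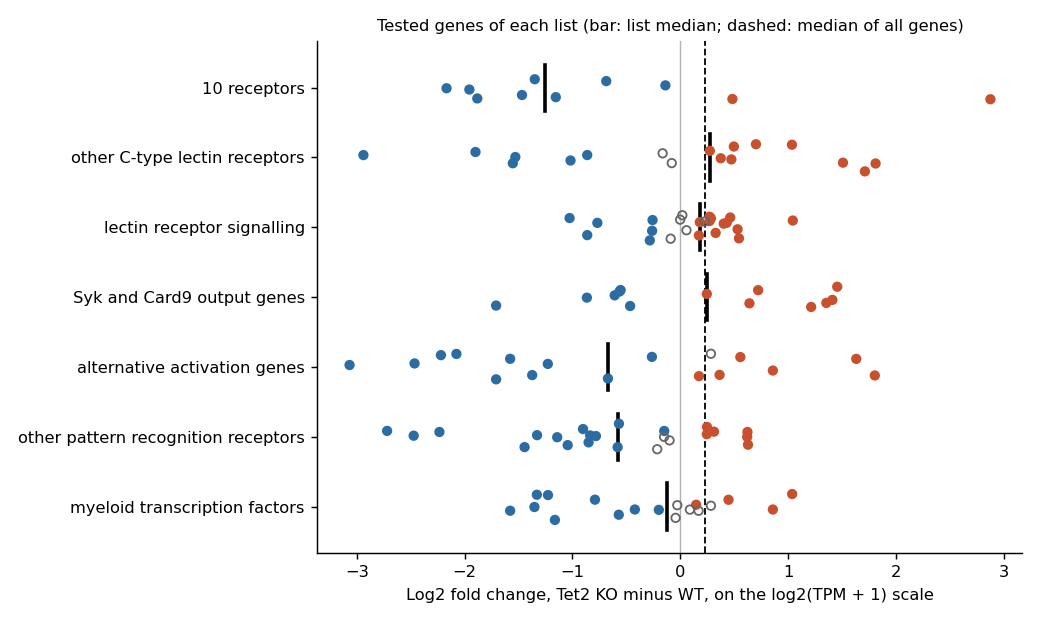
Log2 fold change of every tested gene of the 10 receptors and of 6 gene lists; red and blue points are past the threshold upwards and downwards, open points are not, bars are list medians and the dashed line is the median of all genes. The receptor median is -1.25; the signalling genes spread to both sides of the dashed line, with a median of 0.18.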

How the data were processed

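RNA was sequenced from 2 WT and 2 Tet2 KO libraries, made with a stranded mRNA kit per the labels' protocols. The authors deposited 1 table of TPM with 2 decimals, made with STAR and RSEM on mm10 per the submitters' processing notes; no source used here gives their versions, the annotation or any filter. Samples were grouped by their titles. The 92 spike-in rows were left out of the tests, and 27 rows with date-like names were tested but not named.

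Genes that reached 1 TPM in 2 or more libraries were compared with limma 3.58.1 (R 4.3.3, statmod 1.5.0) on log2(TPM + 1), with trend and robust estimation. P-values are two-sided, Benjamini-Hochberg adjusted over 11452 genes, and called under 0.05. The log2 scale shrinks the changes of low genes, and folds without log2 are ratios of mean TPM. TPM keep no depth, so no counting interval was computed. Since TPM are shares of a total, a change in abundant RNAs moves all others.

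The members and gene lists were chosen with earlier results of these data known. Besides the 10 members, each list of non-members gave up to 4 genes, those past the threshold with the largest absolute log2 fold change among genes with at least 5 TPM in the higher group and groups apart. Fcer1g, Tyrobp, Syk, Card9, the other Dectin-2 cluster genes, Asgr1, Asgr2, Tet2 and the 2 highest genes of each marker list were named whatever their values; other marker genes were named after their values were seen. Of the genes this rule gave, 2 are not reported here. A gene of several lists counts in each. Lists were described by counts and medians, without a set test. Gene positions came from GENCODE M21.

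The fit was tested on simulated data. Alternatives were pseudocounts of 0.1 and 5, a TPM filter of 5 or none, a replicate block, scaling by quantiles, the median ratio or the spike-ins, TPM recomputed without spike-in rows, limma without trend or robust estimation, and leaving out each library. Figures were drawn with matplotlib 3.10.9, and sequences aligned with biopython 1.88.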

Additional observations from a re-analysis of the deposited data

How the results depend on the processing

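With 2 libraries a group and no stated depth, precision rests on limma's pooling of the spread over genes, and no alternative removes the shared scale of TPM. Of the 150 log2 fold changes of the 10 receptors under the 15 alternatives, 146 kept their direction and their side of the threshold and 4, all of Clec4d, lost the call, so that 7 to 8 receptors were past it downwards and 2 upwards when each library was left out, a fit in which the lone library is taken to vary like the other group. Of 420 counts of genes past the threshold under the alternatives, 387 stayed within 1.5 times. Among the 387 are counts of the B cell and the T and NK cell lists, which held no gene at the test level. Those counts could differ from 0 only with no filter. The counts that moved further follow, and where no construction is named the cause was not tested.

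Scaling moved several counts. Over all genes 6225 rose and 2238 fell as deposited, 3743 and 3982 after median-ratio scaling, 3915 and 3741 after quantile normalization and 3394 and 4324 after spike-in scaling. In the signalling list 6 rose after median-ratio scaling and 5 after spike-in scaling, in place of 12, and 10 fell after spike-in scaling, in place of 6. Under these 3 scalings 3 other pattern recognition receptors rose in place of 6, and 4 neighbouring genes in place of 7. Fcer1g turned from 0.00 to 0.26 on the log2 scale after quantile normalization. Tet2 turned from 0.01 to -0.23, -0.25 and -0.27 after median-ratio, quantile and spike-in scaling, and Adgre1 from 0.09 to -0.16 after median-ratio and -0.20 after spike-in scaling.

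A filter sets which genes are tested. With no filter, 10 other C-type lectin receptors and 10 neighbouring genes fell, in place of 6 and 5, and 4 macrophage markers, 2 dendritic cell markers, 1 B cell marker and 4 stromal and endothelial markers rose, in place of 2, 1, 0 and 2. With a filter of 5 TPM, 3 other C-type lectin receptors, 5 alternative activation genes and 3 neighbouring genes fell, in place of 6, 10 and 5, and 0 dendritic cell markers rose, as also after quantile normalization. The count of 2 macrophage markers that rose, Fcgr1 and Adgre1, became 1 after median-ratio and spike-in scaling, without an intensity trend and with the replicate block, and ranged from 1 to 2 when each library was left out (1 without either WT library or without Tet2 KO replicate 2).

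The replicate numbers are shared between the groups, but no label ties same-numbered libraries together, and their deviations from the group means correlated at -0.0561 over 11452 genes. With the replicate block 6179 genes rose and 2211 fell, the receptors stayed at 2 higher and 8 lower, and apart from the macrophage markers no list's count left the 1.5-fold range.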
